A study of Schizosaccharomyces pombe with 4 samples.

Results

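The genes at both ends of chromosome II of the fission yeast Schizosaccharomyces pombe were followed in RNA sequencing libraries of cells whose labels give a loz1 deletion and of wild-type cells. A gene was taken if its transcript ended before base 100000 or began after base 4439804 of the 4539804-base chromosome, and if its identifier began with SPBC or SPBP. The identifiers SPBC1348.06c, SPBPB2B2.15 and SPBPB21E7.01c were left out. This gave 63 of the 7092 genes in the files, 33 within 100 kb of the left end and 30 within 100 kb of the right end. Of these, 62 matched the RefSeq annotation of the species, and SPBC8E4.02c did not. There were 2 libraries labelled loz1 delta and 2 of wild type. All 4 came from cultures in a minimal medium limited for zinc to which zinc was added back, at 100 mM as the labels give it, a unit that was not checked. The labels name no other allele and do not describe the deleted part of loz1.

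Subtelomeres are the stretches of chromosome next to the telomeres. In fission yeast their outer parts are packed into heterochromatin that carries methylated histone H3 lysine 9 and the protein Swi6, and they hold families of near-identical genes that also occur at the ends of chromosome I. Many of the genes there are weakly expressed in growing cells, and several encode membrane transporters and enzymes of nutrient use. Loz1 is a zinc finger protein that represses genes of zinc uptake and some other genes when zinc is plentiful.

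The values are FPKM, fragments per kilobase of transcript relative to the library total, as the authors deposited them. The depth estimated from the bounds of these values was 1.8e+07 and 1.92e+07 fragments in the deletion-labelled libraries and 1.69e+07 in each wild-type library. The targeted gene went against its label, since loz1 was at 56.4 and 56.0 FPKM in deletion-labelled libraries against 6.87 and 5.81 FPKM in wild type. All directions below follow the labels. Over all genes tested, replicates differed by a median of 0.09 in the deletion-labelled pair and 0.24 in the wild-type pair on the log2 scale. Over the tested members these medians were 0.09 and 0.29 at the left end and 0.20 and 0.49 at the right end. Marks of the mating types also differed, as the summed level of 7 M-cell genes was 159 and 151 FPKM in deletion-labelled libraries and 5001 and 18465 FPKM in wild type, and all 7 were called lower. The summed level of the P-cell genes map2 and map3 was 35.6 and 29.7 FPKM in deletion-labelled libraries and 7.13 and 6.49 FPKM in wild type, and both were called higher. The part of mating type in the results below was not tested. The labels do not say whether libraries of a group came from separate cultures, and the p-values then reflect how these samples vary, possibly for technical reasons.

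Sequences before the genes are shown for 3 reasons: to show how alike the copies of a subtelomeric gene are, to show the upstream bases of the strongly expressed gene pho1, and to set the Loz1 element beside its match among the members. They come from the RefSeq sequence of build ASM294v3 and run 5′ to 3′ on the gene's strand, and windows reach from 250 bases before to 50 bases after the RefSeq gene start. Capitals mark GATC, the core of the element, in a window. The window of the left-end transporter gene SPBC1348.05 (II:13322-13621, plus strand) and that of the right-end transporter gene SPBPB2B2.16c (II:4499345-4499644, minus strand) were identical at all 300 bases and held no GATC.
SPBC1348.05 and SPBPB2B2.16c: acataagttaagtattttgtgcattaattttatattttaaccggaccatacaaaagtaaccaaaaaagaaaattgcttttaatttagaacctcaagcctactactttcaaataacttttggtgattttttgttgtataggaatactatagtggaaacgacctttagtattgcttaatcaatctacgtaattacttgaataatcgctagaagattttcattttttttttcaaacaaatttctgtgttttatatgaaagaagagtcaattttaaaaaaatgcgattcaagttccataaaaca
The window of pho1 (II:4447256-4447555, plus strand) held 2 GATC.
pho1: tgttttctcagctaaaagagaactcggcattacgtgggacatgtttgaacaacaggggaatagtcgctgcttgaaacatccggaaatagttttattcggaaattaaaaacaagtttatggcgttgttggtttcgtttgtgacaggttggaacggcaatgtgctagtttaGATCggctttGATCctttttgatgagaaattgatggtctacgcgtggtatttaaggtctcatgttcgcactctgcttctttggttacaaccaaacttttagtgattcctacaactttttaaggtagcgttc

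The zinc-responsive Loz1 element was searched on both strands as CG, 2 free bases, GATC, a free base and T. Degenerate positions of the element were left free, so a match need not meet the element in full. This pattern occurred in the windows of 72 of 5144 genes (1.40%) and of 1 of the 62 matched members (1.61%). The member with a match was the pseudogene SPBPB21E7.08 (II:72243-72300, plus strand). Its transcript in the files begins at base 72081, before the RefSeq start, so the match lies inside that transcript. The windows of SPBC1348.06c (II:16702-16759, minus strand) and SPBPB2B2.15 (II:4496206-4496263, plus strand), which lie among the members and were left out of the set, each held 2 overlapping matches in an identical stretch. Capitals mark the matches.
SPBPB21E7.08: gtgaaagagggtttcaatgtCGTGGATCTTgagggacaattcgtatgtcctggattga
SPBC1348.06c and SPBPB2B2.15: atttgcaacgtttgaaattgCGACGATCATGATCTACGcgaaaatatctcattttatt
Of the 14 members called higher below, 0 held the element and 8 (57.1%) held GATC. Of the 9 called lower, 1 held it and 3 (33.3%) held GATC. The 0 depends on leaving out SPBC1348.06c and SPBPB2B2.15, which were called higher themselves (log2 differences of 9.16 and 9.11). Copies with identical windows, such as ftm5 (SPBC1348.02) and SPBPB2B2.19c, are counted separately in the 14. GATC alone occurred in 42.7% of all windows and in 48.4% of the members' windows. A match is a description of the letters, and the lack of one says only that these letters are not in this window.

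In the deletion-labelled libraries, families of genes for membrane and unknown proteins were higher near both ends of chromosome II, while deeper in the left window a stretch of genes without copies elsewhere was lower. The acid phosphatase gene pho1, 90.8 kb from the right end, was the highest member in the deletion-labelled libraries at the right end. Genes whose mean reached 1 FPKM and whose transcript had at least 200 nt were tested with limma on log2(FPKM + 1), so every difference below is on that scale, where changes of low genes are understated. A gene was called at a Benjamini-Hochberg adjusted p under 0.05 over the 6315 genes tested. With 2 libraries a group, the groups can stand apart in an unchanged gene too. The share of all genes where they did is not given here, so a lack of overlap is a description only.

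Of the 63 genes 46 passed the filter, 23 at each end. At the left end 6 rose and 8 fell, and at the right end 8 rose and 1 fell. Together that is 14 higher, beside 11.9% of all genes tested, and 9 lower, beside 4.37%, with 16.3% of all genes called in either direction. As shares of the tested members these are 30.4% higher and 19.6% lower. The other 23 tested members were not called, and their differences lay between -0.46 and 0.62 at the left end and between -0.79 and 1.22 at the right end. The median difference was 0.26 at the left end and 0.84 at the right end, beside 0.13 for all genes tested. The left median was 0.47 without wild-type replicate 1 and turned to -0.030 without wild-type replicate 2. Without deletion-labelled replicate 1 the counts were 2 higher and 3 lower at the left end and 5 and 0 at the right end, and without deletion-labelled replicate 2 they were 2 and 4 and 5 and 0. Without wild-type replicate 1 they were 11 and 8 at the left and 15 and 1 at the right, and without wild-type replicate 2 they were 7 and 9 and 13 and 5.

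The remaining 17 genes were not tested, 16 for a mean under 1 FPKM and 1 for a transcript under 200 nt. Their mean levels lay between 0 and 1.05 FPKM. They include the telomere-linked RecQ helicase gene tlh2 (SPBCPT2R1.08c), 6.91 kb from the right end, at 0.711 and 0.574 FPKM in deletion-labelled libraries and 0.456 and 0.146 FPKM in wild type. An estimated 75.2 and 63.9 fragments stood behind these values in deletion-labelled libraries and 46.0 and 14.1 in wild type, on a long transcript. SPBC1348.15 and SPBCPT2R1.03, which lie at opposite ends and share all of their sequence, had the same values in all 4 libraries (0.352 and 0.801 FPKM in deletion-labelled libraries, 0.215 and 0 FPKM in wild type), so they are not separate measurements. The pseudogene SPBPB10D8.03 was listed at 0 in all 4 libraries.

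At the left end the direction went with the distance from the end, and at the right end rises and the 1 fall were not set apart by it. At the left end the 6 genes that rose began 7.63 to 22.1 kb from it and the 8 that fell 38.5 to 72.1 kb from it. At the right end the 8 that rose began 19.4 to 90.8 kb from it, and the 1 that fell lay inside that range, at 85.6 kb. In the outer 50 kb of the left end 6 of 10 tested genes rose and 1 fell, with a median of 1.72, and in the next 50 kb 0 of 13 rose and 7 fell, with a median of -0.39. In the outer 50 kb of the right end 6 of 9 tested genes rose and 0 fell, with a median of 2.03, and in the next 50 kb 2 of 14 rose and 1 fell, with a median of 0.03. Across the 23 tested genes of an end, which are neighbours and in part copies of each other, Spearman's rho between the difference and the distance was -0.55 at the left end and -0.37 at the right. Among the genes with under 20% shared sequence it had the other sign, 0.28 over 9 genes at the left and 0.24 over 13 at the right.

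**Figure D1:**
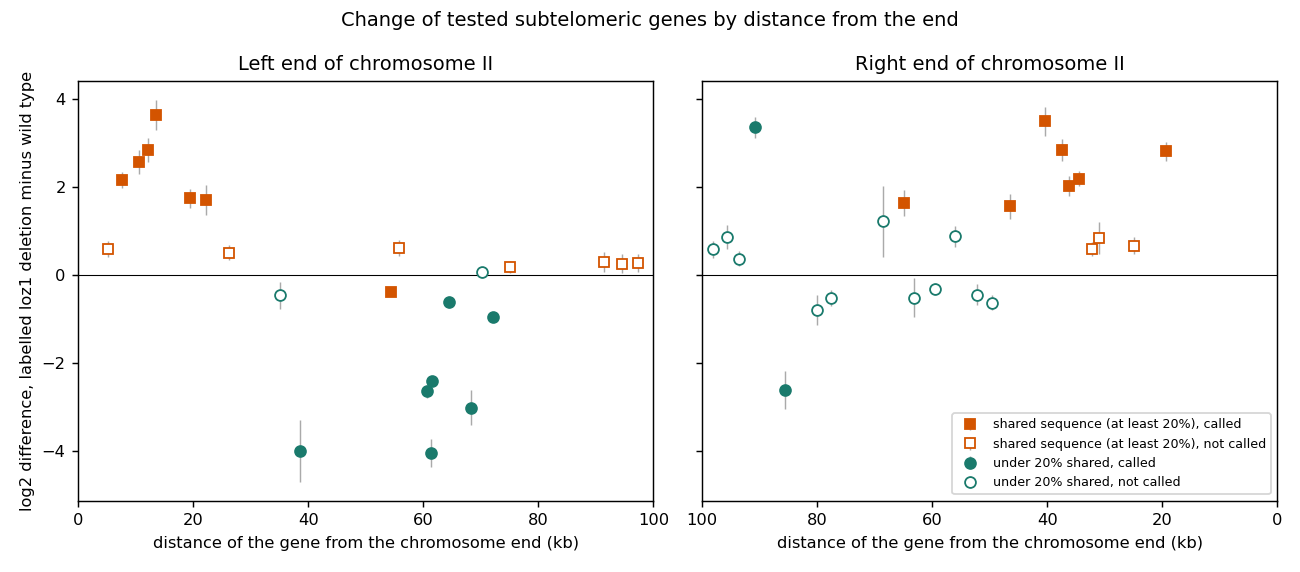
The log2 difference between the deletion-labelled libraries and wild type, with its standard error, is plotted for each of the 46 tested genes by distance from the left or right end of chromosome II in kb. Squares are genes with at least 20% shared sequence and circles those with less, filled where called. The higher genes of the left end lie within 22.1 kb of it, and the lower ones between 38.5 and 72.1 kb.

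At the left end a run of 6 neighbouring members rose together (II:7633-23529), and all 6 passed the test. They encode proteins of the membrane, a methyltransferase and proteins of unknown role. At least 74.5% of the transcript positions of each begin a 100-nt stretch that occurs elsewhere in the genome too, so the reads of a copy cannot be assigned to it with certainty. How the authors' processing treated reads with several matches is not given in the sources used here.

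The transporter gene SPBC1348.05 (II:13572-15378), 94.5% shared, was at 37.7 and 33.5 FPKM in deletion-labelled libraries against 3.10 and 1.13 FPKM in wild type. Both deletion-labelled libraries lay far above both wild-type ones. The difference was 3.63 ± 0.34 (log2, SE, adjusted p = 0.00556), the largest rise at this end. The methyltransferase gene SPBC1348.04 (II:12176-12750), fully shared, was at 64.1 and 53.7 FPKM in deletion-labelled libraries against 9.90 and 5.39 FPKM in wild type. Its groups did not overlap, and the difference was 2.84 ± 0.28 (adjusted p = 0.00650). The gene ftm5 (SPBC1348.02, II:7633-9457), fully shared, encodes a protein with a transmembrane helix. It was at 57.2 and 57.6 FPKM in deletion-labelled libraries against 10.1 and 14.5 FPKM in wild type, again without overlap, and the difference was 2.16 ± 0.19 (adjusted p = 0.00452). Without either deletion-labelled library SPBC1348.05 stayed called and ftm5 did not, and SPBC1348.04 lost its call without deletion-labelled replicate 1.

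The other 3 of the run were lower in level. Its second gene for a protein with a transmembrane helix, ftm6 (SPBC1348.03), was at 5.40 and 6.65 FPKM in deletion-labelled libraries against 0.191 and 0.157 FPKM in wild type, rising by 2.58. SPBC1348.07, of unknown role, was at 7.36 and 7.91 FPKM in deletion-labelled libraries against 1.49 and 1.68 FPKM in wild type, rising by 1.74. The glycoprotein gene SPBC1348.08c was at 1.88 and 2.88 FPKM in deletion-labelled libraries against 0 and 0.0468 FPKM in wild type, where an estimated 1 fragment stood behind the higher value. Its rise of 1.71 (adjusted p = 0.0367) lost its call after rescaling and without either deletion-labelled library. SPBC1348.07 lost its call without either deletion-labelled library too, and ftm6 lost its call without deletion-labelled replicate 2.

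On the telomere side of the run lies SPBC1348.01, the tested gene nearest the left end, at 8.58 and 8.91 FPKM in deletion-labelled libraries against 5.86 and 5.09 FPKM in wild type. It was not called (0.59, adjusted p = 0.0848). Directly on the other side lies the dehydrogenase gene SPBC1348.09, fully shared, which was too low to be tested, at 1.66 and 1.66 FPKM in deletion-labelled libraries against 0.114 and 0.340 FPKM in wild type, without overlap. Next comes the phospholipase gene SPBC1348.10c, at 18.8 and 19.3 FPKM in deletion-labelled libraries against 14.9 and 11.6 FPKM in wild type, which was not called either (0.51, adjusted p = 0.102). In neither tested gene did the groups overlap, and their differences were smaller than those of the run.

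Further in, the left end held the genes that fell. In bulk RNA, fewer cells of a type and less RNA per cell cannot be told apart. Between SPBPB21E7.02c and SPBPB21E7.08 (II:60553-73390) 7 of 8 members were tested, and 6 of them fell. None of these 6 shares sequence with other loci, but 4 are overlapped over at least 20% of their length by a transcript on the other strand, and with an unstated strand setting the reads of such a pair cannot be told apart.

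SPBPB21E7.02c (II:60553-61205), of the phosphoglycerate mutase and 6-phosphofructo-2-kinase family, was at 15.6 and 19.7 FPKM in deletion-labelled libraries against 109 and 120 FPKM in wild type. Neither sequence sharing nor an overlapping transcript was found for it. It fell by 2.64 ± 0.15 (adjusted p = 0.00164). The uncharacterized pair SPBPB21E7.10 (II:61362-62126) and SPBPB21E7.11 (II:61526-63086) lies on opposite strands, 75.2% of the first and 44.4% of the second being overlapped by the other. SPBPB21E7.10 was at 12.4 and 12.9 FPKM in deletion-labelled libraries against 311 and 161 FPKM in wild type, and fell by 4.04 ± 0.31 (adjusted p = 0.00350). SPBPB21E7.11 was at 185 and 196 FPKM in deletion-labelled libraries against 1030 and 989 FPKM in wild type, and fell by 2.40 ± 0.10 (adjusted p = 0.00105). In all 3 genes both deletion-labelled libraries were well under both wild-type ones, and the calls held whichever library was left out.

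The pseudogene SPBPB21E7.06 (II:68355-68852) was at 1.50 and 3.33 FPKM in deletion-labelled libraries against 34.6 and 18.7 FPKM in wild type. The wild-type libraries differed from each other but lay above both deletion-labelled ones. The gene fell by 3.01 ± 0.40 (adjusted p = 0.0143), a call lost without deletion-labelled replicate 1. The remaining falls of the stretch were smaller. The pseudogene SPBPB21E7.08, 95.2% overlapped by SPNCRNA.1305, which fell by 1.05 itself, was at 66.4 and 72.7 FPKM in deletion-labelled libraries against 129 and 143 FPKM in wild type, and fell by 0.96. The catechol O-methyltransferase gene cmt2 (SPBPB21E7.04c) was at 80.6 and 93.0 FPKM in deletion-labelled libraries against 146 and 122 FPKM in wild type, and fell by 0.62 (adjusted p = 0.0431). The antisense transcript SPNCRNA.1304 overlaps 20.4% of it and fell by 2.01. Neither call held without either deletion-labelled library, and that of cmt2 was also lost with a prior without a trend (adjusted p = 0.0742), without the filter (adjusted p = 0.0778) and with the replicate block (adjusted p = 0.0654).

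In the middle of the stretch, aes1 (SPBPB21E7.07, II:70156-71310), annotated as a phenazine biosynthesis family protein, was the tested member that was not called. It was at 598 and 642 FPKM in deletion-labelled libraries against 652 and 542 FPKM in wild type, the highest mean of any member at the left end. The wild-type libraries lay on either side of the deletion-labelled ones, and the difference was 0.06 ± 0.14 (adjusted p = 0.776).

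The left end had 2 more falls. The hexose transporter gene ght7 (SPBC1348.14c, II:38514-40277) was at 0.0344 and 0.0322 FPKM in deletion-labelled libraries, each an estimated 1 fragment, and at 6.93 and 32.9 FPKM in wild type. Both deletion-labelled libraries were close to 0, and the wild-type libraries lay far from each other. The difference was -3.99 ± 0.70 (adjusted p = 0.0273), with values of -2.94 without wild-type replicate 2 and -5.04 without wild-type replicate 1. The call was lost when either deletion-labelled library was left out, with a pseudocount of 5 and without the filter. The L-asparaginase gene SPBPB8B6.05c, for an enzyme that splits asparagine into aspartate and ammonia, was at 69.5 and 69.9 FPKM in deletion-labelled libraries against 89.4 and 93.8 FPKM in wild type. It fell by 0.39 (adjusted p = 0.0486), the smallest called difference, and shares 74.6% of its sequence, mainly with SPAC977.12 on chromosome I. That call was lost without either deletion-labelled library and with a prior without a trend.

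Next to it the fluoride export channel gene fex2 (SPBPB8B6.06c) was at 9.74 and 11.0 FPKM in deletion-labelled libraries against 5.71 and 7.20 FPKM in wild type, without overlap and without a call (0.62, adjusted p = 0.0902). A second L-asparaginase gene, SPBPB21E7.09, was at 32.0 and 30.3 FPKM in deletion-labelled libraries against 25.0 and 30.0 FPKM in wild type (0.18, not called). Both differences were above 0 and that of SPBPB8B6.05c below it, a contrast between genes that was not tested.

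At the inner border of the left window lie 3 transporter genes of 1 family, which share sequence with each other and with the next gene outside. SPBPB10D8.05c was at 117 and 113 FPKM in deletion-labelled libraries against 119 and 77.2 FPKM in wild type, and SPBPB10D8.06c, the last gene inside, at 122 and 116 FPKM in deletion-labelled libraries against 122 and 80.6 FPKM in wild type. Just outside, SPBPB10D8.07c was at 115 and 110 FPKM in deletion-labelled libraries against 110 and 74.7 FPKM in wild type. Their values ran together in all 4 libraries, and wild-type replicate 2 was the low one for each. The amino-acid permease gene SPBC359.01, the next outside, was at 2.38 and 2.05 FPKM in deletion-labelled libraries against 3.41 and 5.04 FPKM in wild type. None of the 4 was called.

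**Figure D2:**
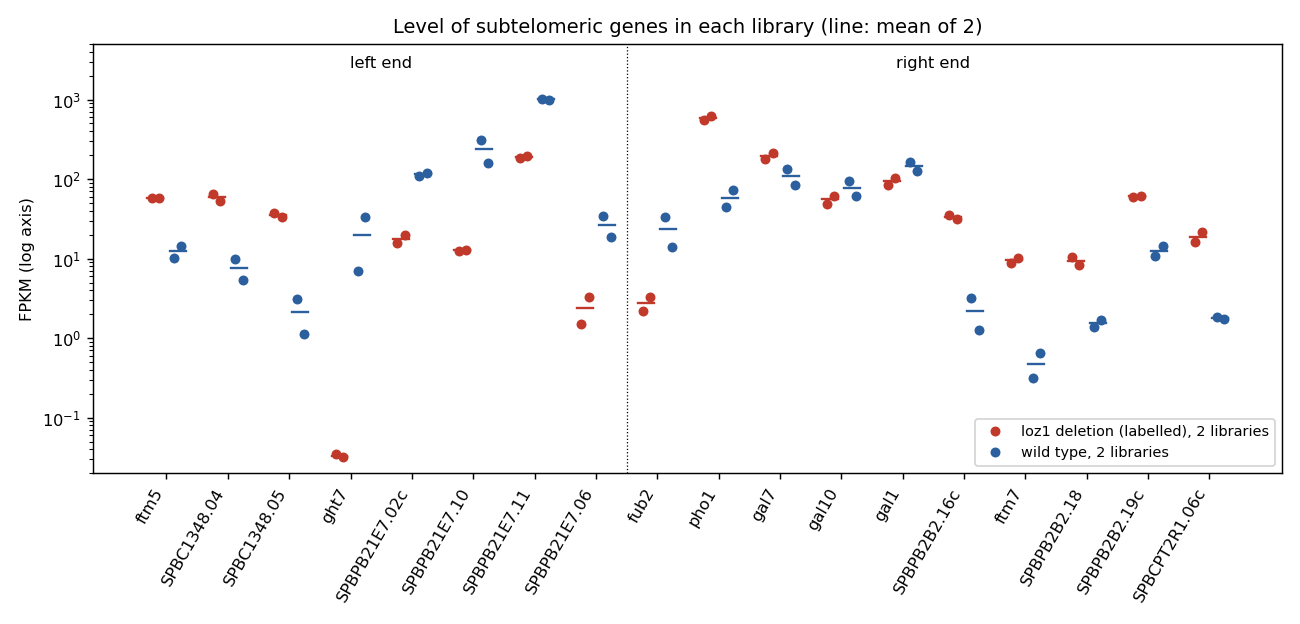
The FPKM of each library (points) and the mean of 2 (lines) are plotted on a log axis. Shown are the called members averaging at least 5 FPKM with a difference of at least 1 in either direction, and the galactose genes. The deletion-labelled points of SPBPB21E7.10, at 12.4 and 12.9, lie under wild type at 311 and 161, those of pho1, at 560 and 624, lie above 45.2 and 72.0, and those of gal10 overlap wild type.

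The right end had a run of 5 neighbouring members that rose (II:4492580-4505257), all 5 tested, and 3 further rises. The run holds copies of genes of the left run. The membrane transporter gene SPBPB2B2.16c (II:4497937-4499394), of the major facilitator family and fully shared, was at 35.7 and 31.2 FPKM in deletion-labelled libraries against 3.18 and 1.25 FPKM in wild type. Both deletion-labelled libraries were far above wild type, and the difference was 3.49 ± 0.33 (adjusted p = 0.00555). SPBPB2B2.19c (II:4503653-4505257), fully shared, encodes a protein with a transmembrane helix. It was at 60.3 and 60.7 FPKM in deletion-labelled libraries against 10.7 and 14.5 FPKM in wild type, and the difference was 2.19 ± 0.17 (adjusted p = 0.00349).

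A second gene of that kind, ftm7 (SPBPB2B2.17c, II:4501956-4502396), 77.3% shared, was at 8.82 and 10.3 FPKM in deletion-labelled libraries against 0.312 and 0.641 FPKM in wild type. It was close to undetected in wild type, and the difference was 2.84 ± 0.26 (adjusted p = 0.00483). The uncharacterized gene SPBPB2B2.18 (II:4502692-4503664), 92.6% shared, was at 10.5 and 8.24 FPKM in deletion-labelled libraries against 1.37 and 1.70 FPKM in wild type, and the difference was 2.03 ± 0.23 (adjusted p = 0.00985). The fifth gene, SPBPB2B2.14c, was at 4.10 and 5.95 FPKM in deletion-labelled libraries against 1.12 and 0.911 FPKM in wild type, rising by 1.56 (adjusted p = 0.0289). None of the 5, all called higher, overlapped between groups. The calls of SPBPB2B2.16c, SPBPB2B2.19c and ftm7 held whichever library was left out, and those of SPBPB2B2.18 and SPBPB2B2.14c were lost without either deletion-labelled library.

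Nearer the end, the pseudogene SPBCPT2R1.06c (II:4519772-4520391), 83.9% shared, was at 16.1 and 21.5 FPKM in deletion-labelled libraries against 1.83 and 1.75 FPKM in wild type. It was the tested gene closest to the right end, at 19.4 kb, and rose by 2.81 ± 0.22 (adjusted p = 0.00349), a call that held whichever library was left out. The next tested genes were not called. SPBCPT2R1.04c was at 13.6 and 14.5 FPKM in deletion-labelled libraries against 9.89 and 7.26 FPKM in wild type (0.66), and SPBCPT2R1.02 at 4.17 and 7.47 FPKM in deletion-labelled libraries against 3.67 and 1.92 FPKM in wild type (0.84). Farther in, SPBPB2B2.07c, 47.8% shared, was at 2.66 and 3.20 FPKM in deletion-labelled libraries against 0.237 and 0.270 FPKM in wild type, rising by 1.65 (adjusted p = 0.0289), a call that was lost without either deletion-labelled library.

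The gene pho1 (SPBP4G3.02, II:4446373-4449053) encodes the secreted acid phosphatase, which releases phosphate from compounds outside the cell. It was at 560 and 624 FPKM in deletion-labelled libraries against 45.2 and 72.0 FPKM in wild type. The deletion-labelled libraries lay far above, and the difference was 3.35 ± 0.23 (adjusted p = 0.00288), a call that held whichever library was left out. It was the only one of the 14 members called higher with under 20% shared sequence, and none of it was shared. The transcript in the files begins 1133 bases, or 42.3% of its length, before the RefSeq start, so the deposited value covers both the part upstream of that start and the rest.

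Beside pho1 lies pho84 (SPBC8E4.01c, II:4444125-4446200), for the transporter that brings inorganic phosphate into the cell. It was at 237 and 237 FPKM in deletion-labelled libraries against 154 and 216 FPKM in wild type, without overlap but with wild-type libraries far apart, and was not called (0.37 ± 0.18, adjusted p = 0.201). The unmatched gene SPBC8E4.02c, just before it, was at 61.8 and 58.8 FPKM in deletion-labelled libraries against 24.4 and 43.4 FPKM in wild type (0.87, adjusted p = 0.0928). The gene ecl3 (SPBC8E4.12c), the first inside the border, was at 102 and 106 FPKM in deletion-labelled libraries against 56.5 and 84.6 FPKM in wild type (0.58, adjusted p = 0.113). Wild-type replicate 1 was the low library in these 3 neighbours.

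Just outside the right window, the agmatinase gene SPBC8E4.03 was at 128 and 132 FPKM in deletion-labelled libraries against 85.9 and 80.4 FPKM in wild type, rising by 0.64 (adjusted p = 0.0176). The aldo/keto reductase gene SPBC8E4.04 beyond it was at 512 and 467 FPKM in deletion-labelled libraries against 377 and 384 FPKM in wild type and was not called (0.36, adjusted p = 0.0763).

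The 1 fall at the right end was fub2 (SPBP4G3.03, II:4453054-4454161), of the PI31 proteasome regulator family, 85.6 kb from the end. It was at 2.17 and 3.31 FPKM in deletion-labelled libraries against 33.2 and 14.1 FPKM in wild type. The groups stood apart although the wild-type libraries differed, and the difference was -2.62 ± 0.43 (adjusted p = 0.0232). The antisense transcript SPNCRNA.1695 overlaps 79.0% of it and was not called (-0.87, adjusted p = 0.340). The call of fub2 was lost without either deletion-labelled library and without the filter.

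The galactose genes lie side by side 49.5 to 56.0 kb from the right end and encode the enzymes that convert galactose to a form of glucose. None was called, and they did not share a sign. The uridylyltransferase gene gal7 (SPBPB2B2.10c, II:4482234-4483799) was at 180 and 215 FPKM in deletion-labelled libraries against 135 and 84.6 FPKM in wild type (0.88 ± 0.24, adjusted p = 0.0693). The galactokinase gene gal1 (SPBPB2B2.13, II:4488322-4490271) was at 84.3 and 102 FPKM in deletion-labelled libraries against 165 and 125 FPKM in wild type (-0.63 ± 0.17, adjusted p = 0.0721). So gal7 was above and gal1 under wild type in both deletion-labelled libraries. In each case the nearest libraries of the groups lay closer together than the wild-type libraries did, while the group means lay farther apart. The epimerase gene gal10 (SPBPB2B2.12c, II:4484023-4487569) was at 49.3 and 61.9 FPKM in deletion-labelled libraries against 93.5 and 60.7 FPKM in wild type (-0.44 ± 0.24, adjusted p = 0.248), and its groups overlapped.

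Overlap touches this cluster. The dehydratase gene tgd1 (SPBPB2B2.11) covers 92.8% of gal10 on the other strand and was untested, at 0.638 and 0.570 FPKM in deletion-labelled libraries against 0.339 and 0.471 FPKM in wild type. SPNCRNA.1697 covers 58.8% of gal1 and was not called (-0.38, adjusted p = 0.383). For gal7 the overlap was 7.47%.

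Between the galactose genes and fub2 the tested genes without shared sequence were not called. The amino-acid permease gene nrg1 (SPBPB2B2.01) was at 13.9 and 17.1 FPKM in deletion-labelled libraries against 38.3 and 19.4 FPKM in wild type (-0.79). The sterol deacetylase gene say1 (SPBPB2B2.02) was at 4.98 and 5.74 FPKM in deletion-labelled libraries against 8.60 and 7.63 FPKM in wild type (-0.52). The gene pan5 (SPBPB2B2.09c), for a reductase of pantothenate synthesis, was at 22.5 and 22.4 FPKM in deletion-labelled libraries against 31.3 and 25.5 FPKM in wild type (-0.32). These 3 had no overlap between groups, with wild type above. The phosphatase gene SPBPB2B2.06c showed the widest gap between replicates, at 25.7 and 34.4 FPKM in deletion-labelled libraries against 30.2 and 4.54 FPKM in wild type, a difference of 1.22 ± 0.81. Wild-type replicate 1 lay within the deletion-labelled range and wild-type replicate 2 far below it.

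Sequence shared with other loci and the direction of change went together. Of the 63 members 31 have at least 20% of their transcript positions in 100-nt stretches found elsewhere, 14 of them at every position, and 28 have such a copy on chromosome I. Of the 24 shared members that were tested 13 rose and 1 fell, with a median of 1.60. Of the 22 tested members with under 20% shared, 1 rose and 8 fell, with a median of -0.51. At the left end these were 6 higher and 1 lower of 14 shared genes and 0 higher and 7 lower of the 9 others. At the right end they were 7 higher and 0 lower of 10 shared genes and 1 higher and 1 lower of the 13 others. Over the whole genome, the 24 shared members included, 46 of 146 tested genes with shared sequence rose (31.5%) and 7 fell, with a median of 0.52.

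**Figure D3:**
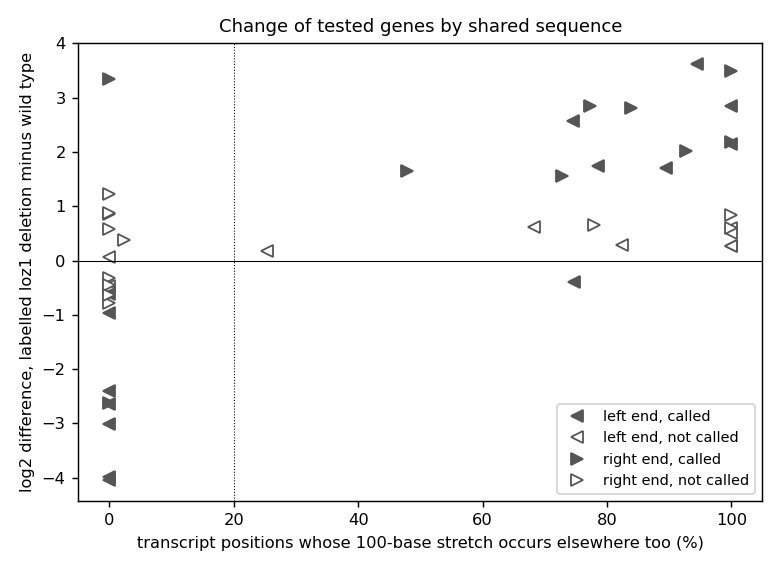
The log2 difference between the deletion-labelled libraries and wild type is plotted against the percent of transcript positions whose 100-base stretch occurs elsewhere too, for the tested members, with triangles pointing to the end they belong to. To the right of the 20% line 13 filled symbols lie above 0 and 1 below, and to its left 1 lies above and 8 below.

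Because copies can share reads, the 13 rises are not 13 separate measurements: linked by shared sequence they form 8 groups. All 13 share sequence with genes of chromosome I, 14 in all. All 14 of these were called higher, beside 31.5% of all tested genes with shared sequence. That larger set includes the 14 and the shared members, so it is not a separate background. The 14 were picked through members already called higher and can share reads with them and with each other. Their calls are therefore neither separate measurements nor separate support. SPAC750.02c, identical to the transporter genes SPBC1348.05 and SPBPB2B2.16c in all 300 bases of its window, was at 38.8 and 32.2 FPKM in deletion-labelled libraries against 3.74 and 1.68 FPKM in wild type (3.35). A second relative, SPAC977.04, shares 27.3% of SPBC1348.05 and was at 67.0 and 59.4 FPKM in deletion-labelled libraries against 2.91 and 1.46 FPKM in wild type (4.37). In both relatives each deletion-labelled library lay above each wild-type one.

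For the transmembrane helix genes, ftm5 and SPBPB2B2.19c had identical windows, and so had ftm6 and ftm7. SPAC977.01, which shares 60.1% of ftm5, was at 49.8 and 52.9 FPKM in deletion-labelled libraries against 6.80 and 9.79 FPKM in wild type. SPAC750.05c, which shares 61.8% of it, was at 51.5 and 52.5 FPKM in deletion-labelled libraries against 6.51 and 9.16 FPKM in wild type. The 4 copies of this family lay between 49.8 and 60.7 FPKM in deletion-labelled libraries and between 6.51 and 14.5 FPKM in wild type. Among the chromosome I relatives of ftm6 and ftm7, SPAC977.02 was at 22.1 and 24.5 FPKM in deletion-labelled libraries against 0.823 and 0.933 FPKM in wild type, and SPAC750.04c was at 10.7 and 11.9 FPKM in deletion-labelled libraries against 0.479 and 0.476 FPKM in wild type. The methyltransferase gene SPBC1348.04 shares sequence with a non-coding RNA gene at the right end, SPNCRNA.448, which was at 81.7 and 63.8 FPKM in deletion-labelled libraries against 13.9 and 8.53 FPKM in wild type (2.62). For SPBCPT2R1.04c, which was not called, the relatives on chromosome I were SPAC212.04c (0.32, not called), SPAC212.01c (0.73, not called) and SPAC750.06c (1.09, adjusted p = 0.0239).

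**Figure D4:**
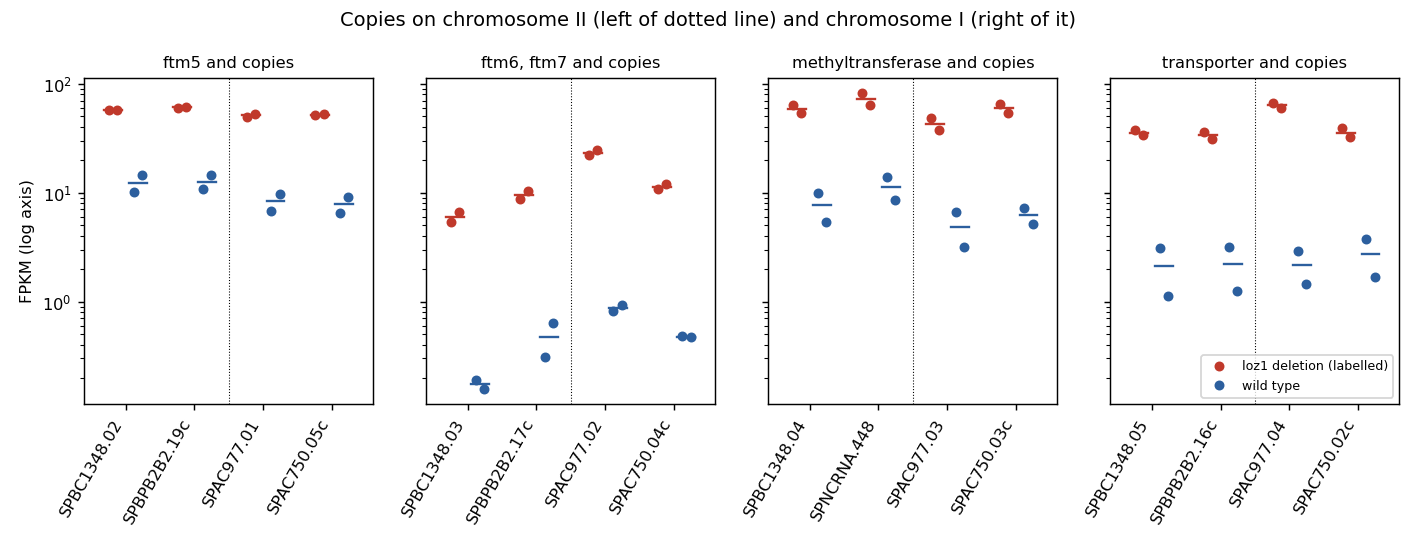
FPKM on a log axis in the deletion-labelled libraries and in wild type (points: libraries, lines: mean of 2) is plotted for 4 gene families, with chromosome II genes left of the dotted line and their chromosome I copies right of it. Each family was picked through a member called higher, and its genes can share reads, so they are not separate measurements. In each gene both deletion-labelled libraries lie above both wild-type ones, which is a description only.

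Compared with the rest of chromosome II the subtelomeric genes were low. Their median level was 9.74 and 10.3 FPKM in deletion-labelled libraries and 5.86 and 5.09 FPKM in wild type. Over the 1814 other genes of chromosome II with the same kind of identifier the medians were 45.4 and 43.8 FPKM in deletion-labelled libraries and 39.9 and 37.2 FPKM in wild type. A mean under 1 FPKM was found for 25.4% of the subtelomeric genes and for 1.32% of the others. Level and distance from the end had a Spearman's rho of 0.64 at the left and 0.44 at the right over the tested genes, and of 0.57 and 0.09 over those with under 20% shared sequence. In the rest of chromosome II 228 of 1784 tested genes rose (12.8%) and 51 fell (2.86%), with a median of 0.16.

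The ends of chromosome I, taken by the same distance, hold 70 such genes, 56 of them tested. Of these 29 rose (51.8%) and 7 fell (12.5%), with a median of 0.95. At its left end 19 of 31 rose and 2 fell, and at its right end 10 of 25 rose and 5 fell. The subtelomeric genes of chromosome II thus had a smaller share of rises and a larger share of falls, 30.4% and 19.6% of 46. That difference was not tested, and the sets share sequence through their copies. The sets are also unlike, as no identifier was left out on chromosome I. On chromosome II SPBC1348.06c and SPBPB2B2.15, called higher, and SPBPB21E7.01c, called lower, were left out.

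By annotated product the counts stand beside 11.9% of all genes higher and 4.37% lower. The 11 transporter, permease and channel genes among the members gave 2 rises (22.2%; SPBC1348.05 and SPBPB2B2.16c, copies of each other) and 1 fall (11.1%; ght7) among 9 tested. The 19 enzyme genes gave 2 rises (15.4%; SPBC1348.04 and pho1) and 3 falls (23.1%; SPBPB21E7.02c, SPBPB8B6.05c and cmt2) among 13 tested. The 4 genes annotated only by a transmembrane helix, a class formed after their values were seen, all rose, and they make up 2 pairs of copies. The 1 gene counted under cell surface proteins, SPBC1348.08c, annotated only as a glycoprotein, rose. The 28 other genes, mostly uncharacterized or pseudogenes, gave 5 rises and 5 falls (26.3% each) among 19 tested.

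Genes linked to silencing and the capping of chromosome ends were examined as a list of 37, of which 36 were tested. The list also holds epe1, mst2 and leo1, known to counteract heterochromatin, and tlh1, the chromosome I copy of tlh2. Of the tested genes 2 rose (5.56%, beside 11.9% of all genes) and 0 fell (beside 4.37%), and the median difference was 0.02, beside 0.13 for all genes. The histone deacetylase gene sir2 was at 28.3 and 25.8 FPKM in deletion-labelled libraries against 18.9 and 16.5 FPKM in wild type (0.59 ± 0.14, adjusted p = 0.0482). The histone deacetylase gene clr6 was at 80.1 and 74.7 FPKM in deletion-labelled libraries against 53.4 and 51.4 FPKM in wild type (0.55 ± 0.10, adjusted p = 0.0273). Their groups did not overlap. Rescaling, a prior without a trend and the replicate block each gave 1 gene called higher in the list, leaving out either deletion-labelled library gave 0, and leaving out wild-type replicate 1 or 2 gave 11 higher and 1 lower or 7 and 5. The gene swi6, for the heterochromatin protein, was at 59.5 and 51.4 FPKM in deletion-labelled libraries against 44.1 and 43.7 FPKM in wild type (0.33, adjusted p = 0.116). The methyltransferase gene clr4 was at 3.84 and 3.29 FPKM in deletion-labelled libraries against 5.56 and 5.20 FPKM in wild type (-0.49, adjusted p = 0.165). Both were chosen from the list after their values were seen, and neither was called.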

How the data were processed

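Total RNA of 4 yeast libraries was sequenced by a company with standard Illumina methods, per the labels' protocols. The deposited files give, per the file headers and attribute names, 1 annotated transcript a line with its FPKM and bounds from Cufflinks. The submitters' processing notes name HISAT2, SAMtools, Cufflinks and Cuffdiff and the build ASM294v2, without versions. The strand setting and the treatment of reads with several matches are not given there. The score column that the authors deposited was not used.

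FPKM was summed per gene, and log2(FPKM + 1) was fitted with limma 3.58.1 in R 4.3.3 (empirical Bayes with an intensity trend, Benjamini-Hochberg adjustment over 6315 genes, n = 2 per group), without rescaling. Every adjusted p is from this model, except where another fit is named beside it. Coordinates are those of the files. On chromosome II 97.8% of 1983 introns were identical in the RefSeq annotation of ASM294v3, which gave names, sequences and the 100-nt stretches that occur more than once. Depth was estimated from the width of the bounds of 40 long genes, and covers counting error only. Over the 34 tested members without an overlapping transcript the median was 207 and 237 estimated fragments in the deletion-labelled libraries and 170 and 133 in wild type.

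Genes given in full were called members averaging at least 5 FPKM with a difference of at least 1 (up to 8 per end and direction), the 3 highest members of each end and the galactose genes. In brief came other called members, the 3 tested genes nearest each end and those at the borders. The names of other members were chosen after seeing values. Members and lists were chosen with earlier results of these data known. Alternatives were pseudocounts of 0.1 and 5, no filter or 5 FPKM, median-ratio rescaling, a prior without a trend, a replicate block, each library left out, a 50 kb window, and the set without shared or overlapped genes.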

Additional observations from a re-analysis of the deposited data

How the results depend on the processing

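With 2 libraries a group the calls rest on few values. Of the 23 called members 9 kept their call in every fit (SPBC1348.05, SPBPB2B2.16c, ftm7, SPBPB2B2.19c, SPBCPT2R1.06c and pho1 higher, and SPBPB21E7.02c, SPBPB21E7.10 and SPBPB21E7.11 lower), and 0 reversed. Without deletion-labelled replicate 1 or 2, 13 or 12 calls were lost, and without either wild-type library 0 were. With a library left out the spread comes largely from the intact pair. Over the fits with a library left out, rises ran from 2 to 11 at the left end and 5 to 15 at the right, falls from 3 to 9 and 0 to 5, the left median from -0.030 (without wild-type replicate 2) to 0.47, and calls over all genes from 73 to 2115 higher and 40 to 880 lower. The silencing list ran from 0 to 11 higher and 0 to 5 lower.

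Without the members of shared sequence the medians turned to -2.40 at the left and -0.32 at the right, with 0 and 1 rises. Within 50 kb the medians were 1.72 and 2.03, with 1 fall at the left and 0 at the right. Without overlapped members 4 falls were left at the left end and 0 at the right. Testing at 5 FPKM, which drops low genes, left 3 rises at the left end. Without the filter the left median was 0.040, right falls 0 and falls over all genes 176. Rescaling moved the median of all genes by 0.13, to 0.00, and the left median to 0.12. It gave 431 higher and 323 lower genes, so that 57.2% in place of 73.2% of calls were higher, and 13 and 9 among the members. The cause of these changes was not tested beyond what their construction shows.

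No pairing by replicate number was seen across genes, as the deviations of same-numbered libraries had a correlation of -0.01. That value cannot show whether same-numbered libraries were prepared together. With the replicate block 5 rises and 6 falls were left at the left end and 6 and 1 at the right, 538 and 224 over all genes and 1 rise in the silencing list, which also had 1 after rescaling and with a prior without a trend. The members that lost their call under the block were SPBC1348.08c, SPBPB8B6.05c, cmt2, SPBPB2B2.07c and SPBPB2B2.14c.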
